A study of Mus musculus with 4 samples.

Results

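The pancreas, gut and liver self antigens are 38 genes whose products are normally made by islets, exocrine pancreas, intestine or liver, out of 23366 genes counted in mouse medullary thymic epithelial cells (mTECs). They were listed by the tissue in which they are known to work, but with earlier results of these data already known. They comprised 7 islet hormones, 8 pancreatic enzymes and cofactors, 5 Reg proteins, 4 intestinal genes, 6 apolipoproteins and 8 liver plasma proteins. RNA was sequenced from wild-type C57BL/6 mTECs, with 2 pools from females and 2 from males, 10 mice to a pool, all aged 6 to 8 weeks. The cells had been sorted as propidium iodide-negative, CD45-, MHCII+ and Ly51 low, and no animal carried a transgene or received a treatment according to the labels. The study asked how mTEC transcripts differ between the sexes. Values given for the 4 pools are in the order female pool 1, female pool 2, male pool 1 and male pool 2.

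mTECs present self antigens of peripheral tissues to developing T cells, so that T cells reactive to them are deleted or become regulatory T cells. Part of this ectopic expression depends on Aire, the autoimmune regulator, and another part on the transcription factor Fezf2. Each antigen is known to be transcribed in only a small share of mTECs at a time, and in bulk RNA fewer expressing cells cannot be told apart from less RNA per cell. Insulin in the thymus is a textbook case, since immune tolerance to it bears on type 1 diabetes.

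Counted reads came to between 1976272 and 7103627 per pool. Where no read was counted, up to 3 counts remain possible, equal to 0.357 to 1.48 normalized CPM (reads per 1000000 counted reads, scaled by the trimmed mean of M-values) depending on the pool. The sorted cells were checked against markers before the antigens were read. All 11 mTEC markers had counts in every pool, among them Epcam at 36.8, 42.4, 43.8 and 51.3 normalized CPM. Aire was at 19.2, 31.5, 19.6 and 28.7 normalized CPM, and Fezf2 at 4.33, 16.7, 9.63 and 15.3. Markers of cells that the gate should leave out were present too. The summed normalized CPM of 7 B cell markers, Cd79a and Cd79b among them, was 4443, 2900, 3648 and 2434, and that of the mTEC markers, led by Spint2, Krt8 and Krt18, was 437, 729, 470 and 703. B cell genes were thus a visible part of the RNA in each pool. For dendritic cells and macrophages, 7 of 8 listed symbols were in the table, all with counts in every pool, and they summed, with Lyz2, Flt3 and Cd68 in the lead, to 1951, 3224, 1430 and 4257. The 7 thymocyte markers, led by Lck, Cd8a and Cd3g, summed to 339, 285, 819 and 340. Of 5 fibroblast markers, 4 had counts in every pool (Dcn, Col3a1 and Col1a2 in the lead), and the list summed to 11.1, 45.8, 64.3 and 78.2. Pdgfra was the fibroblast marker at 0, in all pools but male pool 1.

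Nearly all of the antigens left some trace in the mTECs, but most did so at a few reads. At least 1 count in any pool was found for 37 of 38 genes (97.4%), against 76.5% of all genes in the table. Counts in all 4 pools were found for 19 genes (50%), against 57.4% of all genes. More than 3 counts in all pools were found for 8 genes (21.1%, against 47.2%), and 14 genes (36.8%, against 46.5%) passed the low-count filter of the tests. In 12 genes, Ins1 among them, no pool had more than 3 counts. The single gene without a read was Ins1, the second insulin gene of the mouse. Its transcript could be told from that of Ins2, since 99.3% of the 50-base stretches of its mRNA occurred in no other gene of the annotation.

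**Figure D1:**
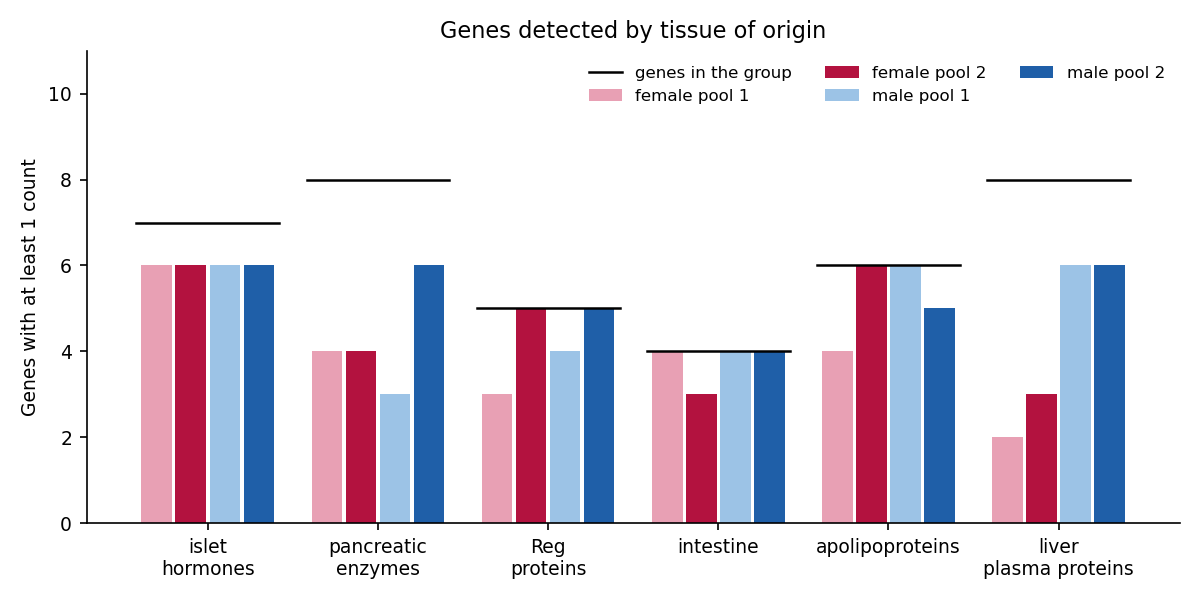
Number of genes with at least 1 count (vertical axis) in each tissue group (horizontal axis), with one bar per pool and a black line for the size of the group. Islet hormones reached 6 of 7 in every pool, whereas liver plasma proteins ranged from 2 to 6 of 8.

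Detection differed by tissue of origin. Islet hormones were found most evenly, with 6 of 7 having counts in all 4 pools. By share, the intestinal group followed with 3 of 4, then apolipoproteins with 4 of 6, Reg proteins with 3 of 5 and pancreatic enzymes with 3 of 8. None of the 8 liver plasma proteins had a count in every pool, although each had at least 1 count somewhere. The number of antigens with a count was 23, 27, 29 and 32 in the 4 pools. With every pool thinned to the smallest total, the expected numbers were 19.5, 27, 20.8 and 28.4. At that equal depth, pool 2 of each sex held more of the antigens than pool 1, while the share of all genes detected varied from 61.3% to 63.7%.

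**Figure D2:**
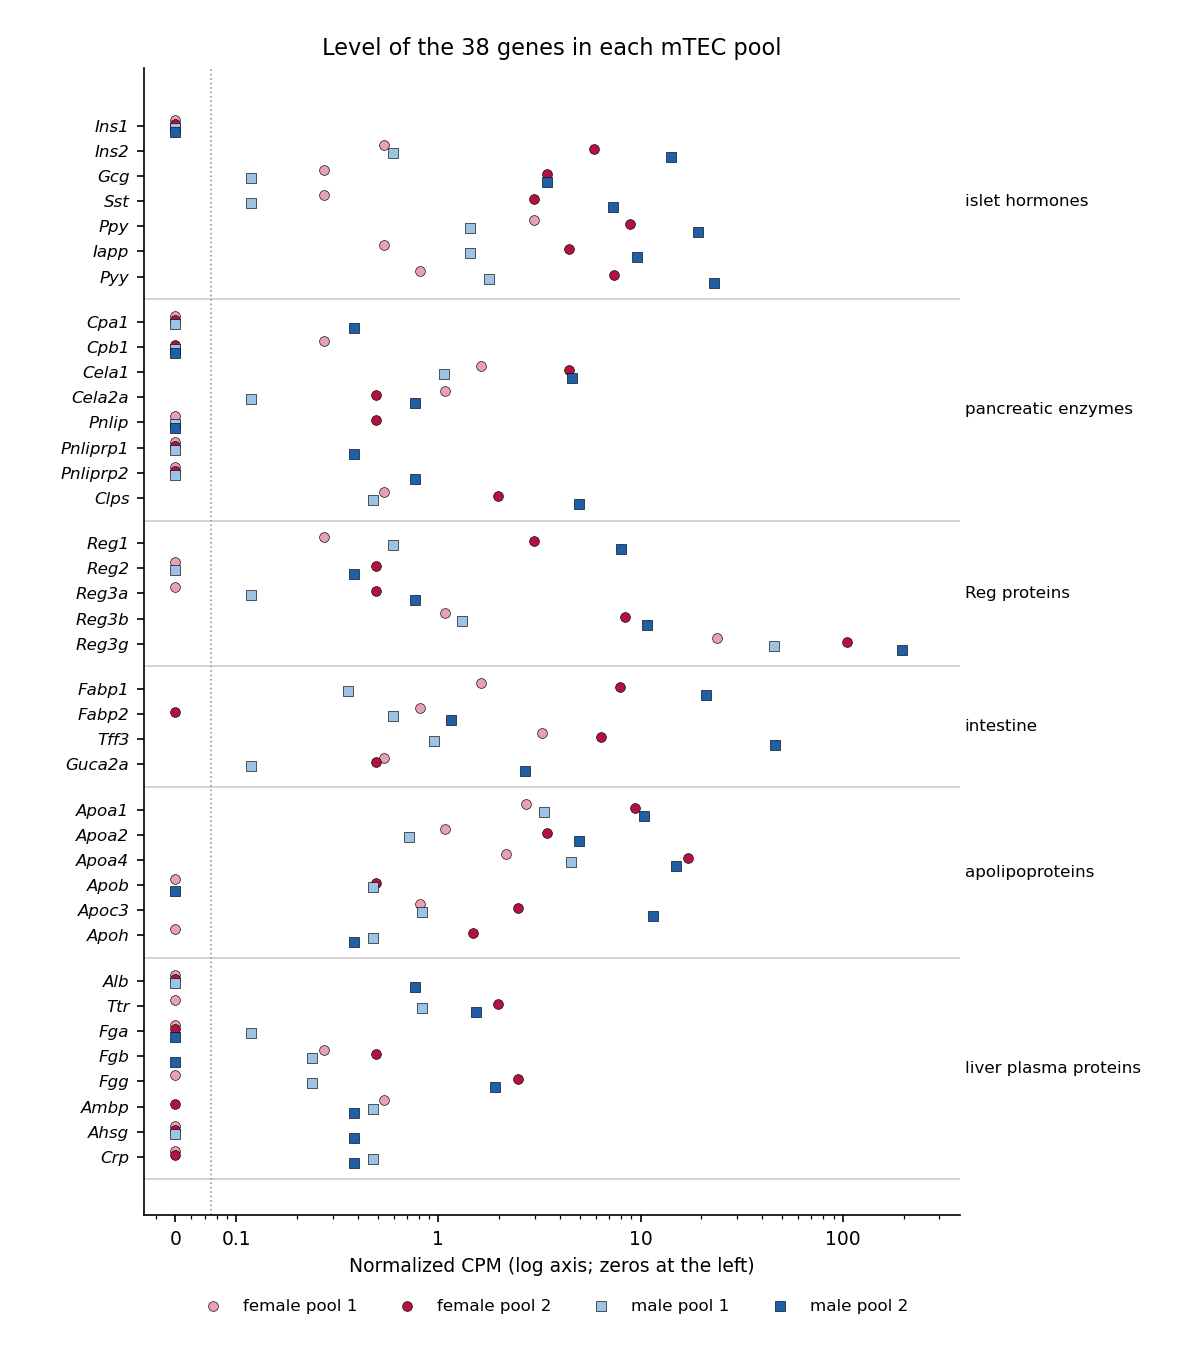
Normalized CPM (horizontal log axis, zeros at the left edge) of each of the 38 genes, grouped by tissue, with one symbol per pool. Reg3g stands to the right of every other gene in each pool, and the liver plasma proteins lie at or below 3 normalized CPM.

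The level of the antigens per transcript length covered several orders of magnitude. The annotation of NCBIM37 (mm9) gave a length for all 38 genes and for 21232 symbols in the table. The highest mean normalized RPKM over the 4 pools was that of Reg3g at 119, above 97.1% of all genes with a length. Tff3 followed at 28.9, Ppy at 16.2, Pyy at 14.3 and Fabp1 at 14 on the same scale. The median of all genes was 0.722. For every pair of genes next to each other in this ranking the ranges over the 4 pools overlapped. Reg3g supplied 1195 of the 2295 reads counted on the antigens, or 46.2% to 65.6% of them depending on the pool.

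The Reg proteins are secreted C-type lectins of pancreas and gut, and their genes lie together on chromosome 6 between 78320879 and 78418868. Reg3g and Reg3b, bactericidal lectins of the intestinal epithelium, were the most abundant of the family. Reg3g had 88, 213, 384 and 510 counts, which was 23.8, 105, 45.7 and 195 normalized CPM. Reg3b was at 1.08, 8.37, 1.31 and 10.7 normalized CPM, and Reg1, a pancreatic stone protein, at 0.271, 2.95, 0.595 and 8.05. For all 3 genes, both pools 2 lay above both pools 1. The neighbours Reg2 and Reg3a had only 2 and 4 counts over all pools, so that within one cluster of related genes the mean level per length ran from 0.316 normalized RPKM for Reg2 to 119 for Reg3g. The 120 bases before the transcription start of these genes are shown because they are the start regions of close relatives that differed so widely in level. They are RefSeq promoters (table on GRCm38.p6) placed on NCBIM37 by exact match, written 5′ to 3′ on the strand of the gene, with TATAAA in capitals.
Reg1 (chr6:78375857-78375976, plus strand): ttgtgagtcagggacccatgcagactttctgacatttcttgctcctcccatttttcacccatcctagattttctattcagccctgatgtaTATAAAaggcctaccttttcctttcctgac
Reg2 (chr6:78355029-78355148, plus strand): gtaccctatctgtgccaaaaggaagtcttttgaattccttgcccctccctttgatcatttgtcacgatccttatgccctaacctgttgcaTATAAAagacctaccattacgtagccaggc
Reg3a (chr6:78330583-78330702, plus strand): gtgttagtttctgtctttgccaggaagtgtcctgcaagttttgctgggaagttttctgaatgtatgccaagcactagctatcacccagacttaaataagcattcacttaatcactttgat
Reg3b (chr6:78320759-78320878, plus strand): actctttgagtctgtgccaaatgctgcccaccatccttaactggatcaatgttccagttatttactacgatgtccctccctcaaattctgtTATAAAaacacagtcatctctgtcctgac
Reg3g (chr6:78418869-78418988, minus strand): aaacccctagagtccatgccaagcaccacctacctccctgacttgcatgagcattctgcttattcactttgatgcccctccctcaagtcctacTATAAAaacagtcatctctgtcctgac
TATAAA stood on the gene strand between 40 and 21 bases before the start in Reg1, Reg2, Reg3b and Reg3g, and not in Reg3a. Reg3b and Reg3g shared a run of 20 bases up to the start, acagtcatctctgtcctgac, the longest shared run of any pair in the family. Reg2 carried TATAAA at that place and was nevertheless near the limit of detection.

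The islet hormones are peptides that endocrine cells of the pancreas, and for several of them of the gut, release into the blood. Ins2, the insulin gene that the mouse thymus is known to express, had 2, 12, 5 and 37 counts, or 0.541, 5.91, 0.595 and 14.2 normalized CPM. Ins1 had 0 counts in all pools, which in male pool 1 allows up to 0.357 normalized CPM. Gcg, the glucagon precursor, had 1, 7, 1 and 9 counts and did not pass the filter. The higher values of both detected genes were those of the 2 pools numbered 2. Sst, somatostatin of delta cells, was at 0.271, 2.95, 0.119 and 7.28 normalized CPM. Ppy, pancreatic polypeptide, was at 2.98, 8.86, 1.43 and 19.2, and Pyy, peptide YY of gut and islet endocrine cells, at 0.812, 7.39, 1.78 and 23.0 normalized CPM. Iapp, the amylin that beta cells release with insulin, was at 0.541, 4.43, 1.43 and 9.58 normalized CPM. In each of these genes male pool 2 was the highest library and female pool 2 the next. Ppy and Pyy are neighbours on chromosome 11, Ppy at 101961244 to 101962633 and Pyy at 101967990 to 101969146. The start regions of the hormones with a matched entry are given in the same way, because Ins1 had no read and the others were detected, with TATAAA or the cAMP response element TGACGTCA in capitals.
Ins1 (chr19:52338667-52338786, plus strand): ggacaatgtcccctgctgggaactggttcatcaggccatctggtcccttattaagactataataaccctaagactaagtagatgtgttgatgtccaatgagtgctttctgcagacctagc
Gcg (chr2:62321711-62321830, minus strand): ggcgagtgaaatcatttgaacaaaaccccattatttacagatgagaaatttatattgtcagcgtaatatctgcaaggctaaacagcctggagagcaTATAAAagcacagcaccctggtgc
Sst (chr16:23890931-23891050, minus strand): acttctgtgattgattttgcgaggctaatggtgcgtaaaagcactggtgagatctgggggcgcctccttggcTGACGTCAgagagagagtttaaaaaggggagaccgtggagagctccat
Ppy (chr11:101962634-101962753, minus strand): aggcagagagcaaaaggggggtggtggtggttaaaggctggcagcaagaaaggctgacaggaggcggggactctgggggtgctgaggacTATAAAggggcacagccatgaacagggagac
Iapp (chr6:142246825-142246944, plus strand): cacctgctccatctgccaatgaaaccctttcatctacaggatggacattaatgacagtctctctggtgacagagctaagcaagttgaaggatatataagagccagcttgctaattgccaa
Pyy (chr11:101969147-101969266, minus strand): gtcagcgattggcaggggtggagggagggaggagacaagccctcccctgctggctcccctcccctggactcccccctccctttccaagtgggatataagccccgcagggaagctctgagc
TGACGTCA occurred in the Sst promoter alone among the antigens. TATAAA lay within the window of 40 to 21 bases before the start in Ppy, and just outside it in Gcg. No promoter entry was matched for Ins2, Clps, Tff3, Apoc3 and Ttr.

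The pancreatic enzymes, secreted by acinar cells for digestion, were found at few reads. Cela1, an elastase, was the one enzyme that passed the filter, at 1.62, 4.43, 1.07 and 4.6 normalized CPM. Clps, the cofactor of pancreatic lipase, had 2, 4, 4 and 13 counts, and Cela2a, another elastase, had 4, 1, 1 and 2. The other 5 genes were carboxypeptidases and lipases at the edge of detection. Cpa1, Cpb1, Pnlip and Pnliprp1 each had 1 count in all 4 pools together, and Pnliprp2 had 2. The summed level of the group was 3.52, 7.39, 1.66 and 11.9 normalized CPM.

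Among the intestinal genes, a secreted peptide and a lipid carrier predominated. Tff3, the trefoil factor of goblet cells, had 12, 13, 8 and 121 counts, or 3.25, 6.4, 0.951 and 46.4 normalized CPM. Fabp1, the fatty acid-binding protein of liver and proximal intestine, was at 1.62, 7.88, 0.357 and 21.1 normalized CPM. Male pool 2 stood far above the other pools for both. Guca2a, guanylin, had 2, 1, 1 and 7 counts. Fabp2, the intestinal fatty acid-binding protein, had 3, 0, 5 and 3 counts and did not share the pattern of the former genes.

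Apolipoproteins carry lipids in blood and are made by liver and small intestine. Apoa4 was at 2.16, 17.2, 4.52 and 14.9 normalized CPM, Apoa1, the main protein of high-density lipoprotein, at 2.71, 9.36, 3.33 and 10.3, and Apoa2 at 1.08, 3.45, 0.713 and 4.98. Here the 2 pools numbered 2 were near each other, in contrast to Tff3. Apoa1, Apoc3 and Apoa4 lie side by side on chromosome 9 between 46036663 and 46051542, and Apoc3, an inhibitor of lipoprotein lipase, had 3, 5, 7 and 30 counts. Apoh had 0, 3, 4 and 1 counts. Apob, the large structural protein of low-density lipoprotein, had 0, 1, 4 and 0 counts. Of the 1815 exonic bases of Apoa4, 632 overlap the opposite-strand transcript Gm10680, and without a stated strand option for the counter the reads of both cannot be told apart.

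The liver plasma proteins, secreted by hepatocytes into blood, were found at few reads as well. Ttr, transthyretin, had 0, 4, 7 and 4 counts, and Fgg, the fibrinogen gamma chain, had 0, 5, 2 and 5. Ambp had 2, 0, 4 and 1 counts, and Crp, C-reactive protein, 0, 0, 4 and 1. Alb, the main protein of blood plasma, had 2 counts, both in male pool 2. Fgb had 1, 1, 2 and 0 counts, while Fga and Ahsg each had a single read over all pools. The 3 fibrinogen chains are encoded next to each other on chromosome 3 between 82811781 and 82853725. The summed level of the group was 0.812, 4.92, 2.38 and 5.36 normalized CPM, and none of its genes passed the filter.

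**Figure D3:**
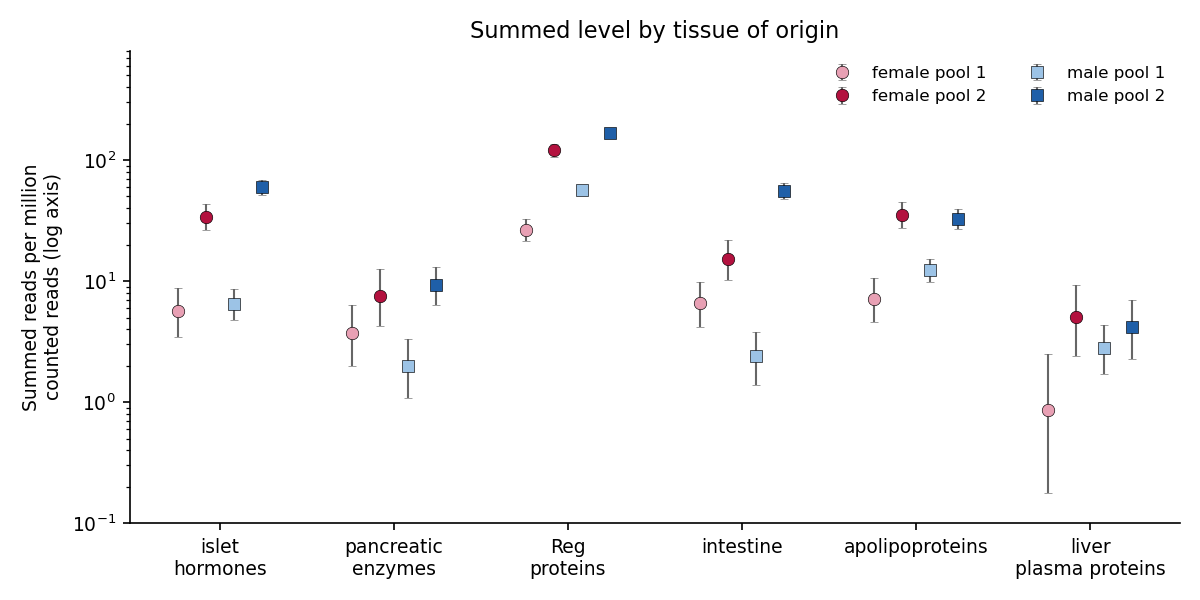
Summed reads of each tissue group per 1000000 counted reads (vertical log axis) in each pool, with exact 95% binomial intervals that cover counting error only. In all 6 groups pool 2 lies above pool 1 of the same sex, from a ratio of 2.10 for pancreatic enzymes in females to 35.3 for intestinal genes in males after normalization.

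Summed over all 38 genes, the antigens took 50.4, 218, 82.4 and 330 reads per 1000000 counted reads. The exact 95% binomial intervals were 43.3 to 58.4 and 198 to 239 in the female pools, and 75.8 to 89.3 and 311 to 350 in the male pools. The intervals of all 4 pools were apart, and they cover counting error only. Normalized sums were 4.42 times higher in pool 2 than in pool 1 in females and 6.08 times in males. Without Reg3g these ratios were 4.44 and 9.51. The order of the pools by their antigens was thus not the order by sex.

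The comparison the study was designed for is that of males with females, and none of the 14 antigens that could be tested passed the threshold. By edgeR's quasi-likelihood test 0 of 14 passed an adjusted p of 0.05, against 0% of the 10865 genes tested, and the adjusted p of each was close to 1. At an unadjusted p under 0.05, 0 of 14 passed, against 0.322% of all genes that were higher in males, and DESeq2 and edgeR's exact test called 0 as well. Log2 fold changes of males over females ranged from -0.19 ± 0.93 (SE) for Cela1 to 2.28 ± 1.46 for Tff3. They lay above 0 for 13 of 14 genes, against 53.2% of all genes tested, with a median of 1.04 against 0.027 over all genes. In no gene, however, did the pools separate by sex. Both male pools were above both female pools in 0 of 14 (9.47% of all genes tested), and below them in 0 of 14 (11.7%). For 9 of the 14 this was set in advance, because they passed the low-count filter only through the 2 pools numbered 2. The counts of 0 of 14 therefore do not stand as evidence about the antigens. Reg3g, which reached the cutoff of the filter in all 4 pools, did not separate by sex either.

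The sign of the sex difference changed when male pool 2 was left out. All 14 fold changes then lay below 0, with a median of -1.42 on the log2 scale. That fit sets male pool 1 alone against female pools of both numbers, so sex and pool number cannot be told apart in it. For the 9 genes that passed the filter only through pools 2, the negative sign was also favoured in advance. In those genes male pool 1 was under the cutoff and female pool 2 over it by selection. Reg3g, which reached the cutoff in all 4 pools, was at -0.45 without male pool 2. With all pools and the pool number as a further term in the fit, Reg3g was at 0.92 and the median of the 14 genes at 0.72. Without male pool 1 the median was 1.99 and Reg3g was at 1.63, with male pool 2 as the one male library. That fit sets male pool 2 against female pools of both numbers and takes it to vary like them. For the 9 genes that passed the filter only through pools 2, the positive sign was favoured in advance. With no filter on low counts Tff3 alone passed (log2 fold change 2.25, edgeR adjusted p = 0.0147), as did 0.146% of all genes. For the apolipoproteins the fold changes were near 0, at 0.17 ± 0.80 for Apoa1, 0.22 ± 1.12 for Apoa2 and 0.01 ± 0.97 for Apoa4, and all 3 had a negative sign with library sizes as the only scaling.

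The spread between pools is given as a description, since a gene was tested if it reached 2.92 CPM in at least 2 pools and 9 of the 14 antigens did so only in the 2 pools numbered 2 (1.74% of all genes tested). Such genes had to vary within each sex. The biological coefficient of variation that edgeR estimated within the sexes was 0.522 to 0.956 for the 14 antigens and above the trend for their abundance in all of them (30.0% of all genes tested). Within the pool numbers it was 0.191 to 0.508. The remaining 5 genes were Reg3g, which reached the cutoff in all 4 pools, and Ppy, Tff3, Apoa1 and Apoa4, which reached it in 3. For Reg3g the coefficient was 0.577 within the sexes, where the trend for genes of its abundance was 0.325, and 0.274 within the pool numbers.

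**Figure D4:**
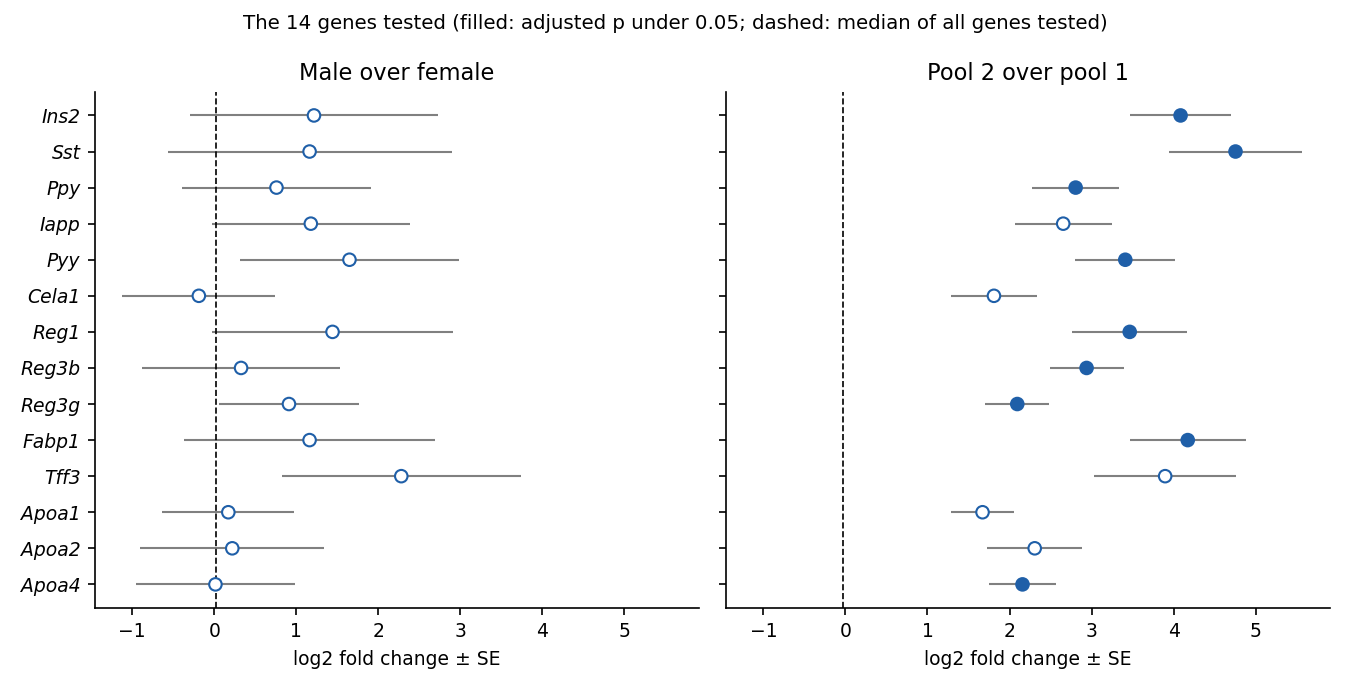
Log2 fold changes with standard errors (horizontal axis) of the 14 antigens tested, for males over females and for pools 2 over pools 1. Filled symbols passed an adjusted p of 0.05 and the dashed line is the median of all genes tested. By sex 0 of 14 passed, against 0% of all genes tested. By pool number 9 of 14 passed, all higher in pools 2, against 1.86% of all genes that were higher and 0.175% that were lower. The count by pool number is bound up with the low-count filter, which 9 of the 14 passed only through pools 2.

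The pools were therefore also compared by number, pool 2 against pool 1, although the labels do not say what the number marks. Most antigens with a count were higher in pool 2 of each sex. This held for 21 of 37, against 28.7% of the genes with a count, while 1, Ambp, was lower in pool 2 of each sex. That count includes every antigen with a read, but all 14 genes tested are among the 21. Of the 23 antigens with a count that the filter left out, 7 were higher in pool 2 of each sex, near the share of all genes. The excess thus lay in the genes tested, 9 of which passed the filter only through pools 2. Reg3g, which did not depend on pools 2 to enter the test, had 34.7 ± 15.5 normalized CPM in pools 1 and 150.2 ± 64.0 in pools 2 (SD, n = 2 each), and it rose with a log2 fold change of 2.09 ± 0.39 (SE, edgeR adjusted p = 0.0442). Its ratio of pool 2 to pool 1 was 4.41 in females (95% counting interval 3.42 to 5.72) and 4.28 in males (3.74 to 4.90). Among the 4 genes that reached the cutoff in 3 pools, Ppy rose with a log2 fold change of 2.81 ± 0.53 and Apoa4 with 2.16 ± 0.41 (edgeR adjusted p = 0.0450 and 0.0451). Tff3 was at 3.90 ± 0.86 and Apoa1 at 1.67 ± 0.39 on that scale and did not pass (edgeR adjusted p = 0.0558 and 0.0590). The filter needed 2 pools, and each of these 4 genes reached the cutoff in only 1 of the pools 1. They too needed a pool 2 to be tested, so their p-values are also tied to the filter. Of the 5 genes, Reg3g alone is free of this limit.

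For the other 9 genes neither pool 1 reached the cutoff, and a difference between the numbers was wholly bound up with the filter. Their values are given with no reading of size or order. Log2 fold changes of pools 2 over pools 1 were 4.09 for Ins2, 4.76 for Sst, 2.65 for Iapp, 3.41 for Pyy, 3.47 for Reg1, 2.94 for Reg3b, 4.17 for Fabp1, 2.31 for Apoa2 and 1.81 for Cela1. Sst had a single count in each pool 1, and its ratios of 10.9 in females (95% counting interval 1.33 to 502) and 61.2 in males (9.73 to 2544) were poorly determined. Adjusted p by edgeR was between 0.0390 and 0.0479 for Ins2, Sst, Pyy, Reg1, Reg3b and Fabp1, and 0.0562 for Iapp, 0.0653 for Apoa2 and 0.0894 for Cela1.

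Over the 14 genes as tested, 9 passed, all of them higher in pools 2, against 1.86% of all genes that were higher and 0.175% that were lower. At an unadjusted p of 0.05 all 14 passed (14.4% of all genes, higher), and in all 14 both pools 2 lay above both pools 1 (26.5%). With the filter as it was, these counts do not stand as evidence about the antigens. With library sizes as the only scaling the median log2 fold change of all genes moved from -0.030 to -0.35 and that of the antigens from 2.87 to 2.50, and the calls over all genes went from 202 higher and 19 lower to 372 and 385. Leaving out male pool 2 kept 5 of the 9 (Apoa4, Fabp1, Ins2, Reg3b and Reg3g), Ppy not among them, when 4.15% of all genes passed, and the median was 2.19.

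**Figure D5:**
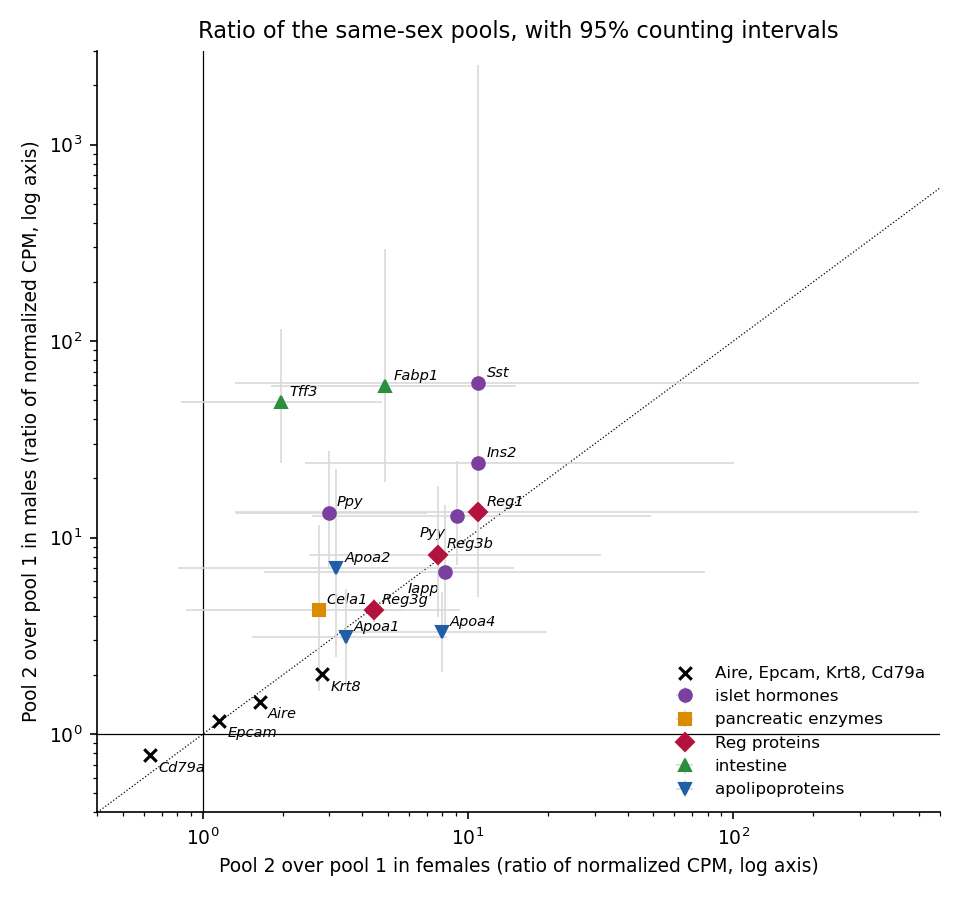
Ratio of normalized CPM in pool 2 over pool 1 for females (horizontal log axis) and males (vertical log axis), with 95% counting intervals, for the 14 antigens by tissue group and, as crosses, for Aire, Epcam, Krt8 and the B cell gene Cd79a. Tff3, Fabp1 and Ppy lie well above the diagonal, with male ratios of 48.7, 59.1 and 13.4 against female ratios of 1.97, 4.85 and 2.98.

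Within each sex the size of the ratio varied between genes. Female ratios ran from 1.97 to 10.9 (median 6.30) and male ratios from 3.11 to 61.2 (median 10.5), and 10 of 14 genes had the larger ratio in males, against 49.7% of all genes tested. The counting interval of the ratio lay above 1 for 11 genes in females (16.4% of all genes tested) and for 14 in males (27.9%). For the 9 genes that passed the filter only through pools 2, a ratio above 1 in each sex was set by that selection. The counts of 11 and 14 therefore do not stand as evidence about the antigens. In 3 of 14 genes the intervals of the sexes did not overlap, a share near the 21.7% of all genes tested. Tff3 had a ratio of 1.97 (0.830 to 4.73) in females and 48.7 (24 to 115) in males, and Fabp1 one of 4.85 (1.80 to 15.1) and 59.1 (19.2 to 295). Ppy had ratios of 2.98 (1.33 to 6.98) and 13.4 (7.05 to 27.7). These intervals hold for single libraries and not for the sexes, each of which has 1 ratio.

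Markers of other cells moved with the pool number as well. Between pools 1 and pools 2, the summed B cell markers went from 3648 to 4443 down to 2434 to 2900 normalized CPM. The dendritic cell and macrophage markers were at 1430 to 1951 in pools 1 and at 3224 to 4257 in pools 2, and the mTEC markers at 437 to 470 and 703 to 729. Thymocyte markers ranged from 339 to 819 in pools 1 and from 285 to 340 in pools 2, and fibroblast markers from 11.1 to 64.3 and from 45.8 to 78.2. Of the 32 markers tested, 0 passed by pool number in edgeR's quasi-likelihood test, 16 had an unadjusted p under 0.05 (23.7% of all genes tested, either direction), and DESeq2 called 8 (5.99%) and edgeR's exact test 10 (10.5%). Their part in the difference of the antigens was not tested. Among mTEC genes, Krt8 was at 43.0, 121, 62.9 and 127 normalized CPM. Aire had a log2 fold change by pool number of 0.63 (edgeR adjusted p = 0.164) and Fezf2 one of 1.12 (0.139). Set against Aire, the summed normalized CPM of the antigens was 2.49, 6.72, 3.55 and 14.7 times its level, so that the antigens differed between the numbers by more than Aire did.

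Other genes of the same tissues, listed by their known site of expression, were also read at low depth. Of 17 such genes tested, 0 passed by sex in edgeR's quasi-likelihood test, 0 had an unadjusted p under 0.05, and 0 were called by DESeq2 or edgeR's exact test. Over all 10865 genes tested these counts were 0, 48, 3 and 8, so 0 of 17 is near the share of all genes. By pool number 1.86% of all genes tested passed as higher and 0.175% as lower. Of 20 further islet and enteroendocrine genes, 5 were tested and 1 rose by pool number, Sct, the gut hormone secretin, at 10.8, 38.9, 13.4 and 122 normalized CPM (edgeR adjusted p = 0.0393). Cpe and Nts, the next most abundant of that list, were at 8.66, 8.37, 8.80 and 5.36 and at 1.35, 1.97, 2.38 and 8.05 normalized CPM. Cpe processes prohormones and Nts encodes neurotensin. Of 18 further acinar genes, 2 were tested and 1 rose, the trypsin inhibitor Spink3, at 0.812, 21.2, 3.45 and 59.8 normalized CPM. Spink3 reached the cutoff of the filter in 3 pools, so it too needed a pool 2 to be tested. Gp2, the zymogen granule glycoprotein, was at 4.33, 8.86, 6.78 and 12.6, and Rnase1 at 1.35, 2.46, 0.713 and 11.5. Of 25 further gut genes, 4 were tested and 3 passed. Fabp6 and Spink4, a goblet cell peptide named after its values were seen, had reached the cutoff of the filter only in pools 2, and the other was Fcgbp, a mucus protein, at 11.9, 38.4, 10.2 and 45.2 normalized CPM. Fabp6, the ileal bile acid-binding protein, was at 2.16, 8.86, 1.78 and 16.5. Cdh17, an intestinal cadherin, was at 36.5, 26.1, 25.7 and 14.2 and did not pass. Of 30 further liver genes, 6 were tested and 2 rose, the apolipoproteins Apoc1 and Apoc2. Apoc2 was at 17.3, 41.4, 17.7 and 169 normalized CPM and Apoc1 at 7.30, 27.1, 8.09 and 83.9, whereas Trf, transferrin, was at 92.5, 145, 91.1 and 130.

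The transcription factors known to drive such genes in their own tissues were mostly without a count or at a few reads. Of 30 factors of the endoderm, 9 had no count in any pool, as did 5500 of all 23366 genes. Among those 9 were Pdx1 and Neurod1 of the islet and Hnf4a and Foxa2 of liver and gut. A further 8 had 1 to 3 counts over all pools, and 9 had counts in every pool. Ins2 was thus counted in pools where Pdx1 was not detectable at this depth. Of the 5 factors tested by edgeR's quasi-likelihood test, 0 passed by sex (0 unadjusted) and 0 by pool number (1 unadjusted), and 0 by DESeq2 or edgeR's exact test in either comparison. Of all genes tested by the first test, 0% passed by sex, and by pool number 1.86% passed as higher and 0.175% as lower. Cdx1, a factor of intestinal epithelium, was at 4.33, 12.8, 11.2 and 11.9 normalized CPM, and Insm1, a factor of endocrine cells, at 10.8, 10.8, 4.16 and 9.96.

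The promoters of the antigens were described by what their sequences share. Entries were matched for 33 of 38 genes and gave 35 promoters, from 250 bases before to 50 after the start. TATAAA on either strand occurred in 13 of 35 (37.1%), against 13.6% of all 32851 promoters. On the gene strand between 40 and 21 bases before the start it occurred in 9 (25.7%, against 1.87%), those of Cela1, Crp, Fabp1, Pnlip, Ppy, Reg1, Reg2, Reg3b and Reg3g. GTTAAT, part of the motif of HNF1 factors, occurred on either strand in 7 (20.0%, against 7.10%). The median observed over expected CpG was 0.210, against 0.384, and 5.71% of the antigens' promoters reached 0.6, against 35.8% of all. Of the 9 genes with TATAAA in that window, 6 passed the low-count filter (Cela1, Fabp1, Ppy, Reg1, Reg3b and Reg3g), and Pnlip, Crp and Reg2 did not. Of the other 24 genes with an entry, 6 passed. These counts were not tested. These matches describe letters in the window and not binding.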

How the data were processed

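RNA was measured in 4 pools of sorted mTECs, 2 per sex, and groups were taken from the labels. The authors made the deposited counts per gene from 50-base reads with Trimmomatic, TopHat2 on mm9 and HTSeq-count, with versions, gene annotation and strand setting not given in the sources used here. Total counts were 1976272 to 7103627 per pool. The table also holds 5 rows of unassigned reads (multiple alignments included), which made up 66.9% to 70.2% of a pool and were left out. No pools differed by less than sampling noise (lowest chi-square per degree of freedom 10.1). Nothing in the labels says how the pools were made in time, so p-values measure the spread between these pools.

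The counts were tested with edgeR 4.0.16 in R 4.3.3: quasi-likelihood test, two-sided, TMM, filterByExpr with a minimum count of 10, prior count 0.125 and Benjamini-Hochberg adjustment over the 10865 genes tested at 0.05. Of 23366 genes, 5500 had no count. Standard errors were derived from each fold change and the root of its F statistic. Normalized CPM and RPKM were computed here, the latter with exonic lengths of the GENCODE annotation of NCBIM37. Counting intervals are exact. DESeq2 1.42.0, limma 3.58.1, Python 3.11.15, pandas 2.3.3 and matplotlib 3.10.9 were also used, and the scripts were tested on simulated data. All 38 antigens are named, with the 3 most abundant genes of each further list (tissues, markers, transcription factors), Aire and Fezf2. Not every gene under this rule is reported here. Other genes were named after their values were seen. The members and lists were chosen with earlier results of these data known. The alternatives were other normalizations, no filter, DESeq2, another prior count, a replicate block, sex as a further term, each pool left out, and 2 further edgeR tests chosen after seeing the data.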

Additional observations from a re-analysis of the deposited data

How the results depend on the processing

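The median fold change of the antigens by sex changed sign when male pool 2 was left out. That fit sets male pool 1 against female pools of both numbers. The direction by pool number did not change in any setting tried. For 9 of the 14 antigens tested the direction by pool number was set by the filter, which they passed only through pools 2. The fits with a pool left out kept the same genes. With no filter 1 antigen passed by sex and 16 of 37 by pool number. Leaving out each pool in turn gave 0 to 6 calls by sex and a median log2 fold change of -1.42 to 2.52, and by pool number 5 to 13 calls and a median of 2.19 to 3.21. The log2 fold changes of males over females then ranged as follows: Apoa1 -0.74 to 1.30, Apoa2 -1.49 to 1.28, Apoa4 -0.96 to 2.14, Cela1 -1.36 to 0.72, Fabp1 -3.50 to 2.66, Iapp -0.57 to 3.21, Ins2 -2.18 to 3.64, Ppy -1.93 to 1.80, Pyy -1.0 to 3.86, Reg1 -1.14 to 3.76, Reg3b -1.67 to 2.38, Reg3g -0.45 to 2.37, Sst -3.24 to 3.49 and Tff3 -2.24 to 3.34. Every one of them lay below 0 without male pool 2, a sign that the filter favoured for the 9 genes that passed it only through pools 2. Apoa4 turned to -0.0060 with upper-quartile normalization, and with library size only Apoa1 was at -0.023, Apoa2 at -0.0011 and Apoa4 at -0.20. By pool number edgeR's exact test called 14 antigens and its newer quasi-likelihood method 8, both chosen after seeing the data, and DESeq2 called 10, library size only 12 and sex as a further term 13. The 9 calls were shared by all of these settings except the newer method (8) and the fit without male pool 2 (5), and no fold change by pool number changed sign in any of them. Among these calls, Ins2, Sst, Pyy, Reg1, Reg3b and Fabp1 had passed the filter only through pools 2, so their steady sign is no support. Over all 10865 genes tested the calls by pool number were 221, and with no filter 1504 of 17866. They were 757 with library size only, 651 by DESeq2, 805 with sex as a further term, 1138 by the exact test and 170 by the newer quasi-likelihood method. By sex they were 0, but 5 with library size only, 26 with no filter, 3 by DESeq2, 8 by the exact test, and 0 to 642 with a pool left out. The cause of these changes was not tested.

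Requiring more than 3 counts in every pool left 8 of the 19 antigens found in all pools, and thinning to the smallest total gave 13.2, so that depth limits what is said of the 24 antigens under the filter. With the pool number as a replicate block, 0 antigens passed by sex, their median log2 fold change was 0.72, and 17 genes passed in all. Pool 2 minus pool 1 correlated between the sexes with r = 0.51 across genes, which are not independent, but over 2 pairs with no shared animal or day in the labels the pools share only a number.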
